A study of Mus musculus with 2 samples.

Results

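The 36 genes described here are a list of cell cycle genes, 12 that act in DNA replication in S phase and 24 that act in mitosis and cytokinesis. They were chosen by name from the 26124 genes of the deposited matrices, and all 36 were present. Lin- progenitor cells from the BM of C57BL/6 mice aged 8 to 10 weeks were cultured in medium with 20 ng/ml GM-CSF, a cytokine that directs them towards dendritic cells, macrophages and neutrophils. On day 3, heme-albumin (300 µM heme) was added to one set of cultures and albumin alone to the other. Cells were labelled with DNA-barcoded hashtag antibodies that named culture days 0, 3, 4, 5 and 7 (the hours in the submitters' design text put the middle harvest after heme 1 day later than the hashtag for day 5), and the 5 cultures of each set were pooled into 1 scRNA-seq library. The comparison therefore had 1 control library and 1 heme library, with 5 cultures in each.

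Nothing in the labels ties a hashtag to a separate mouse or well, and days 0 and 3 name culture times before any heme could act. Whether the day 0 and day 3 cells of the 2 libraries came from the same cultures is not stated. Differences between the libraries on those days show how far the libraries or their cultures differ without heme. Treatment and library cannot be told apart, no difference has a replicate check, and no p-value is given. Intervals are 95% Poisson intervals for counts and their ratios, or 95% exact binomial (Clopper-Pearson) intervals for shares, and they cover counting error only.

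Dividing cells make the S phase genes while they copy their DNA, under the control of E2F transcription factors. The mitosis genes follow in G2 and M phase, when repression by the DREAM complex has ended and the activators B-MYB and FOXM1 act with MuvB at their promoters. In the bone marrow, progenitors and early neutrophil and monocyte precursors divide, and they leave the cycle as they mature. Messenger RNA of these genes is therefore widely used to mark dividing cells.

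The promoters show how the list divides. RefSeq windows of 300 bases (250 before and 50 after the start, GRCm38.p6) were found for 10 of the 12 S phase genes and 20 of the 24 mitosis genes. Mcm4, Gmnn, Aurkb, Ccna2, Kif20a and Tpx2 had none used here. Both strands were searched for the CHR element TTTGAA, the CCAAT box CCAAT and the E2F sites TTTGGCGC, TTTCCCGC, TTTGCCGC and TTTCGCGC. The CHR element was present for 15 of 20 mitosis genes and for 1 of 10 S phase genes (Mcm2), against 20.2% of all 27025 genes with a window. A second form of the CHR element, with adenine in place of guanine, did not separate the lists. This form was present for 6 of 20 mitosis genes and 3 of 10 S phase genes (Mcm5, Pclaf and Rrm2), against 14.9% of all genes. An E2F site was present for 5 of 10 S phase genes (Mcm3, Mcm5, Mcm6, Mcm7 and Pclaf) and 1 of 20 mitosis genes (Cdk1), against 2.6% of all genes. CCAAT was common to both lists, with 9 of 10 and 17 of 20, against 41.1% of all genes. A window with both CCAAT and TTTGAA was found for 14 of 20 mitosis genes, against 7.97% of all genes. Birc5, Tyms and Nusap1 had no CHR element of the first form, no CCAAT box and no E2F site, although Birc5 had the second CHR form. Matches are a description of the letters and not of binding.

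The windows of 2 S phase and 3 mitosis genes follow, 5′ to 3′ on the strand of the gene. These genes appear among the differences between the libraries described later. Capitals mark E2F sites in Mcm5 (chr8:75109259-75109558, plus strand) and Mcm6 (chr1:128359656-128359955, minus strand). In Ube2c (chr2:164769679-164769978, plus strand), Cdk1 (chr10:69352863-69353162, minus strand) and Mki67 (chr7:135716330-135716629, minus strand) they mark CHR elements and CCAAT boxes. A pair of E2F matches overlapped in Mcm5 and in Mcm6, and a pair of CCAAT matches overlapped in Ube2c.
Mcm5: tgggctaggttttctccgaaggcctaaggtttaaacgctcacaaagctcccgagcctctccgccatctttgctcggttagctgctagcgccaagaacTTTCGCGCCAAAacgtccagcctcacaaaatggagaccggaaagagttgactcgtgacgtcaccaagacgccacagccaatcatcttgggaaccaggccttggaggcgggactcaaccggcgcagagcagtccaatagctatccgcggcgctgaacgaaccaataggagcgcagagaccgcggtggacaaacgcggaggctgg
Mcm6: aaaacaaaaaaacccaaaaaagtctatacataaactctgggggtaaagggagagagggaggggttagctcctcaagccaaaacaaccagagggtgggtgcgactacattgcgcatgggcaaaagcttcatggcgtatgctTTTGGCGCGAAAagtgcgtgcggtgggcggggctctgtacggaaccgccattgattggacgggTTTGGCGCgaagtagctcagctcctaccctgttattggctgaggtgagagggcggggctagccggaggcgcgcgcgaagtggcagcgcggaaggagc
Ube2c: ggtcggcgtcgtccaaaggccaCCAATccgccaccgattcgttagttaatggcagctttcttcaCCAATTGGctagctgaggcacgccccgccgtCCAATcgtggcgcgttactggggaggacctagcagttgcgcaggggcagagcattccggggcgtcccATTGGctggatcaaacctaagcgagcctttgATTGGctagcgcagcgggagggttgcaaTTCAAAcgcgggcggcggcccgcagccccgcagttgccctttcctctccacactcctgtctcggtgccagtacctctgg
Cdk1: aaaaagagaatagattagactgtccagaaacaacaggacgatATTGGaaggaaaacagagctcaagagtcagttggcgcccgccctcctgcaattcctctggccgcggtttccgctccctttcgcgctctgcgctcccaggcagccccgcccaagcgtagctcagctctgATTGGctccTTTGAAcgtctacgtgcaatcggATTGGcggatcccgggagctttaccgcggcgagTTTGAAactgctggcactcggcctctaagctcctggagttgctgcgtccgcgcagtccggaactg
Mki67: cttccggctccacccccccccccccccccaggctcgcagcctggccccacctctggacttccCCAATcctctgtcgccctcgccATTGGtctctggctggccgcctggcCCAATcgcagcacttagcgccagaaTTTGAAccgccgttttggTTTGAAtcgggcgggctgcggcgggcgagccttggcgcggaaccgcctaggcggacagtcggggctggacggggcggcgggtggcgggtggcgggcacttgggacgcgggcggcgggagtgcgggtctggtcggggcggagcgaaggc

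After filtering, 11607 control and 13614 heme cells remained (Singlet barcodes with at least 500 genes and under 15% mitochondrial UMIs). The cultures held between 19049621 (control, day 0) and 75095238 UMIs (heme, day 3), and the median UMIs per cell ranged from 9496 (control, day 5) to 20197 (heme, day 3). The libraries shared 112 cell barcodes, 48 of them among the cells kept. Levels are given as CPM, the counts of a gene scaled to the UMI total of its culture. Neutrophil precursor markers summed to 18535 CPM in the control and 15976 CPM in the heme library on day 3, and the T cell markers Cd3e, Cd3d and Trac to at most 3.73 CPM in any culture.

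As lists, the cell cycle genes were lower on days 4 and 5 than on days 0 and 3. The summed level of the 12 S phase genes in the control culture was 2496, 1919, 1382, 1209 and 901 CPM on days 0, 3, 4, 5 and 7. In the heme library it was 2699.7, 2123, 1283, 941 and 989 CPM on the same days. Both libraries had lower S phase levels on each day up to day 5, and on day 7 the control was lower still while heme was not. The 24 mitosis genes summed to 3175, 3070.3, 2422, 1819 and 1266 CPM in the control library and to 3507, 3649, 2280.4, 1309 and 1418 CPM in the heme library. In these sums, fewer dividing cells and less RNA per dividing cell cannot be told apart.

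**Figure D1:**
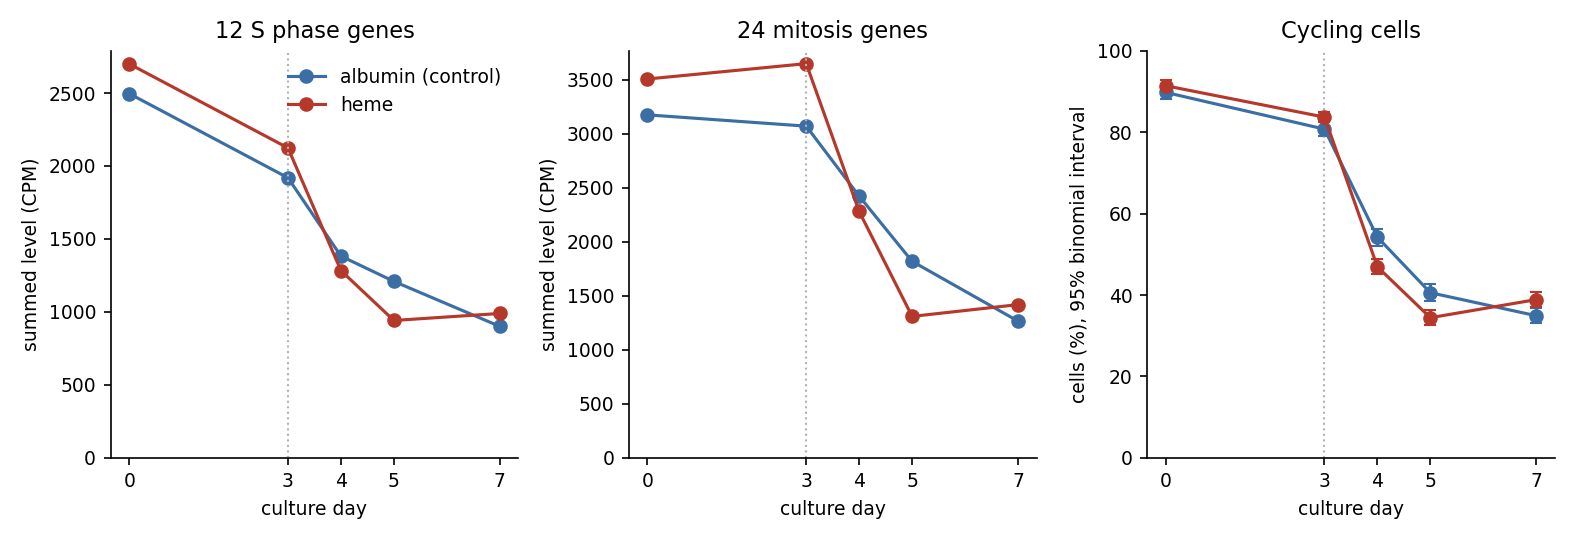
Summed level of the 12 S phase genes (left, CPM) and the 24 mitosis genes (middle, CPM), and share of cycling cells with its 95% binomial interval (right, %), by culture day in the albumin control library (blue) and the heme library (red); the dotted line marks day 3. The heme library lies above the control on days 0 and 3, below it on days 4 and 5 and above it again on day 7, when the cycling shares were 34.9% and 38.9%.

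All 36 genes were lowest on day 7 in the control library. In the heme library 30 were lowest on day 5 and 6 on day 7. The highest day was day 0 for 24 genes and day 3 for 12 in the control library, and day 0 for 19 and day 3 for 17 in the heme library. Lowest and highest days were not counted over all genes, so these counts have no background. Early in culture the lists moved apart. From day 0 to day 3 the S phase genes had a median log2 ratio of -0.66 in the control and -0.51 in the heme library, whereas the mitosis genes stood at -0.05 and 0.12. TMM scaling put the control mitosis value at 0.28, and leaving out cells rich in ribosomal UMIs put it at -0.26.

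In this first step Mcm2, Mcm6 and Mcm7, of the replicative helicase, were the 3 genes of the 36 past 2-fold lower in the control library, a smaller share than the 19.7% of all genes. Mcm7, a subunit of that helicase, was at 218, 78.5, 56.7, 49.9 and 36.02 CPM on days 0, 3, 4, 5 and 7 in the control library, and at 250.1, 94.97, 51.9, 35.8 and 34.1 CPM in the heme library. The ratio of day 3 to day 0 was 0.360 (0.343 to 0.378) in the control and 0.380 (0.367 to 0.393) in the heme library. Mcm6, of the same complex, was at 209.9 and 96.6 CPM on days 0 and 3 in the control. Pclaf, which encodes a PCNA-binding protein, peaked on day 3 in both libraries, at 559 and 551 CPM against 336 and 332 CPM on day 0. Pcna, which encodes the replication clamp, kept the largest part of its day 3 level among the S phase genes of the control library, with 223 CPM on that day and 159.7 CPM on day 7.

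Every gene was lower on day 4 than on day 3 in both libraries, with an interval below 1 for 36 of 36. Among all genes, 34.1% (control) and 41.5% (heme) had such an interval. The step was larger in the heme library, where the median log2 ratio was -0.81 for S phase and -0.65 for mitosis genes, than in the control, where it was -0.48 and -0.35. From day 4 to day 5 the mitosis genes were again lower in the heme library, with a median of -0.75 against -0.38 in the control. The intervals lay below 1 for all 36 genes in the heme and for 34 in the control library, against 26.8% and 16.4% of all genes.

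From day 5 to day 7 the libraries went different ways. In the control, all 36 genes were lower, with intervals below 1 (29.8% of all genes) and median log2 ratios of -0.47 for S phase and -0.49 for mitosis genes. In the heme library 22 genes had an interval above 1 (30.2% of all genes). Only Aurka had one below 1 (21.8% of all genes), at a ratio of 0.925 (0.857 to 0.999). The summed ratio was 1.05 (1.04 to 1.06) for S phase and 1.08 (1.07 to 1.09) for mitosis genes in the heme library, against 0.745 (0.735 to 0.756) and 0.696 (0.688 to 0.704) in the control. The heme values are small, and with cells above 5000 detected genes left out the median mitosis ratio in the heme library changed sign, from 0.12 to -0.12.

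Between the libraries, single genes differed in both directions. The median log2 ratio of heme to control for the S phase genes was 0.19, 0.27, -0.05, -0.23 and 0.18 on days 0, 3, 4, 5 and 7, and for the mitosis genes 0.25, 0.37, 0.06, -0.38 and 0.30. Over all genes tested the median was 0.48, 0.39, 0.36, 0.25 and 0.31. Both list medians lay below it on every day, that of the mitosis genes by little on days 3 and 7. Scaling by TMM factors lowered all log2 ratios by between 0.23 and 0.37 on each day and turned the S phase median negative on every day (-0.12 on day 7) and the mitosis median negative on day 0 (-0.12) and on day 4 (-0.23), with 0.01 left on day 7. On day 5 both medians were negative under each of the 8 alternatives tried. Among these, a lower UMI limit per gene left the medians unchanged by construction.

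Intervals lay above 1 for 24 genes and below 1 for 8 on day 0, where 59.5% and 14.6% of all genes did. On day 3 they numbered 25 and 6 (59.9% and 12.7% of all genes), on day 4 they numbered 15 and 13 (56.8% and 16.9%) and on day 7 there were 23 and 6 (54.6% and 23.3%). On day 5, 29 of the 36 genes had an interval below 1 (20.9% of all genes) and 1, Bub1, had one above 1 (50.5% of all genes). Tyms, Ube2c and Cdc20 were past 2-fold lower on that day, as were 3.58% of all genes. No member was past 2-fold on days 0, 3, 4 or 7, on which 17.6%, 7.09%, 12.8% and 22.8% of all genes were.

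Tyms (chr5:30058202-30073617, minus strand) encodes the enzyme that makes thymidylate for DNA synthesis. It stood at 136, 96.3, 70.5, 60.6 and 42.8 CPM in the control library and at 88.5, 73.5, 35.98, 28.2 and 28.8 CPM in the heme library. The heme library was the lower one on every day, days 0 and 3 included. Its log2 ratio was -0.62, -0.39, -0.97, -1.10 and -0.57. Rrm1 and Rrm2 encode the large and small subunits of ribonucleotide reductase, which supplies the other DNA precursors, and they differed in direction. Rrm1 had log2 ratios of 0.44, 0.59, 0.21, -0.09 and 0.45 and Rrm2 of -0.35, -0.18, -0.34, -0.54 and 0.17.

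Among the kinases and cyclins, Cdk1, the kinase that starts mitosis, stood at 146, 149, 121, 93.6 and 73.6 CPM in the control library and at 108, 127, 78.8, 48.1 and 53.8 CPM in the heme library. It was lower in the heme library on all 5 days, with log2 ratios from -0.24 on day 3 to -0.96 on day 5. Among the cyclins, Ccna2 (cyclin A2) had 0.31, 0.35, 0.07, -0.18 and 0.47, and Ccnb1 (cyclin B1) 0.16, 0.23, -0.02, -0.39 and 0.42. Ccnb2 (cyclin B2) was lower in the heme library on every day, at -0.25, -0.05, -0.39, -0.80 and -0.29. The mitotic kinases Aurka, Aurkb and Plk1 had log2 ratios of 0.23, 0.06 and 0.32 on day 3 and of -0.53, -0.52 and -0.52 on day 5.

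The checkpoint and anaphase-promoting complex (APC) genes held both ends of the range on day 5, with Ube2c lowest and Bub1 highest of the 36. Ube2c (chr2:164769898-164778822, plus strand), the ubiquitin-conjugating enzyme of the APC, was at 346, 409, 355, 253 and 169 CPM in the control library and at 264, 341, 229, 118 and 125 CPM in the heme library. Cdc20, an activator of the APC, was at 101, 73.2, 63.9, 47.0 and 29.4 CPM in the control and at 80.8, 76.7, 42.5, 23.1 and 25.4 CPM in the heme library. On day 5 the ratios of Ube2c and Cdc20 were 0.465 (0.450 to 0.481) and 0.491 (0.455 to 0.529). Bub1, a checkpoint kinase that holds the APC back, was at 38.2, 40.7, 32.6, 25.6 and 18.9 CPM in the control and at 58.6, 67.3, 42.9, 29.5 and 32.0 CPM in the heme library, the higher one on every day.

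Of the kinetochore and spindle genes, Birc5 (survivin, of the chromosomal passenger complex) was lowest in the heme library on each day, at -0.53, -0.23, -0.65, -0.98 and -0.31. Kif11, the motor that separates the spindle poles, was highest on 4 of the 5 days, at 0.74, 0.70, 0.43, -0.09 and 0.47. The central spindle and cytokinesis genes kept close together, and their lowest and highest log2 ratios on day 5 were -0.38 (Kif20a) and -0.00032 (Anln, which anchors the contractile ring). Top2a, which untangles chromosomes, was at 443, 401, 298, 229.9 and 151 CPM in the control and at 629.7, 574, 327, 175 and 194 CPM in the heme library. Mki67, which coats mitotic chromosomes and is the common marker of dividing cells, was at 315, 251, 185, 121 and 69.2 CPM in the control and at 394, 364, 237, 122 and 132 CPM in the heme library. Its ratio on day 7, 1.91 (1.83 to 2.00), was the highest of the 36 on that day.

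**Figure D2:**
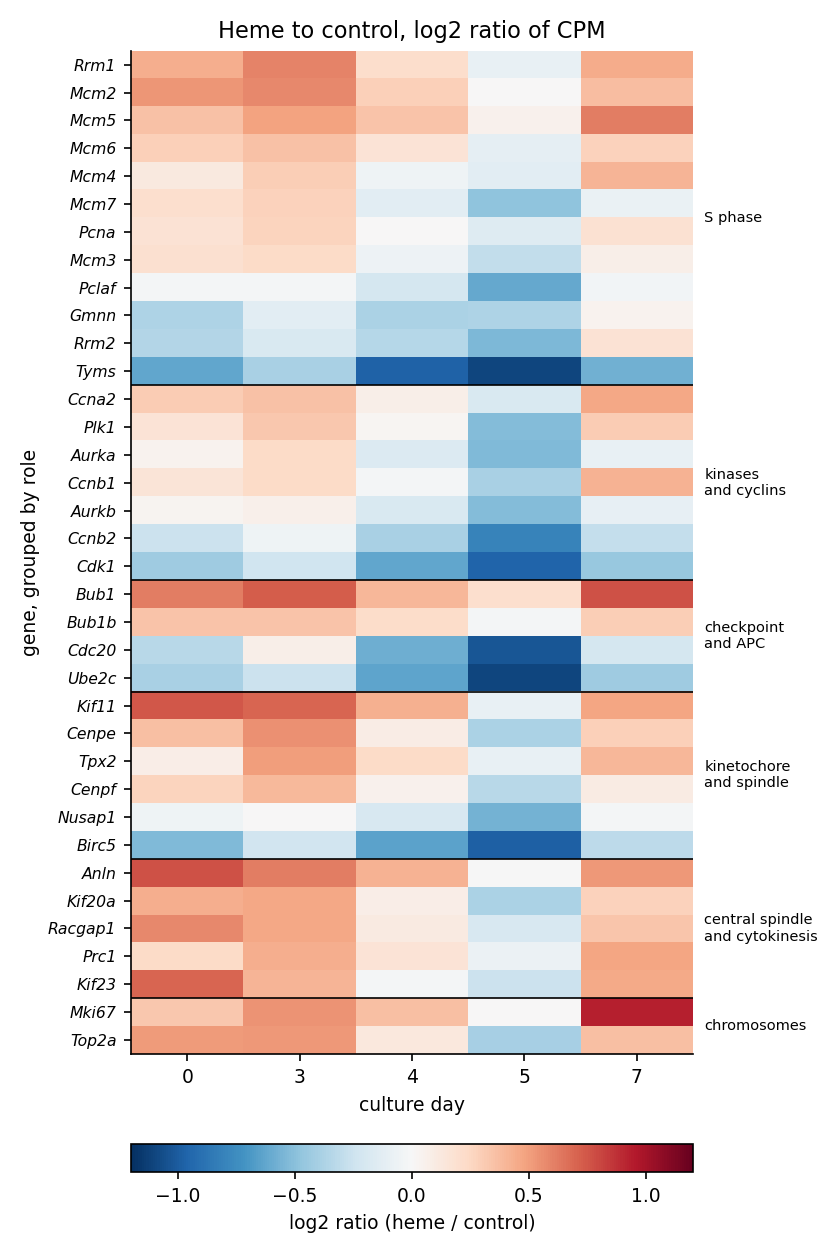
Log2 ratio of CPM, heme to control, of the 36 genes (rows, grouped by role and ordered within a role by day 3) on each culture day (columns); red is higher and blue lower in the heme library, and the scale ends at 1.2. Tyms, Cdk1, Ube2c and Birc5 are blue on all days including days 0 and 3, Bub1 is red on all days, and the day 5 column is the bluest, with a median of -0.38 for the mitosis genes.

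The order of the genes on later days resembled that of day 3, before heme was added. Across the 36 genes, the log2 ratio on day 3 and that on days 0, 4, 5 and 7 had Spearman correlations of 0.92, 0.94, 0.82 and 0.83. They are a description, since the same 2 libraries enter each pair. The ratio also moved with the length of the longest annotated transcript, with a Spearman correlation of 0.61 on day 3 across the 36 genes and of 0.68 across 7564 genes with at least 10 CPM. The part of transcript length or library preparation in these gene differences was not tested.

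Taking each gene's day 3 ratio as its own zero left one direction on days 4 and 5. Relative to day 3, all 36 genes were lower in the heme library on day 4, with a median of -0.30, against 56.0% of all genes and a median of -0.05. All 36 were lower on day 5, with a median of -0.62, against 62.7% of all genes and a median of -0.12. The range on day 5 ran from -1.09 (Cdc20, the one gene past 2-fold, against 6.18% of all genes) to -0.25 (Gmnn, the licensing inhibitor geminin). By role, the medians on day 5 were -0.49 for S phase, -0.72 for kinases and cyclins, -0.68 for checkpoint and APC, -0.74 for kinetochore and spindle, -0.65 for central spindle and cytokinesis and -0.72 for the 2 chromosome genes. On day 7, 26 genes were below and 10 above 0, against 55.1% of all genes below it, with a median of -0.10 that was close to the -0.05 of all genes. Mki67 was highest at 0.40 and Mcm7 lowest at -0.35. All 3 days were set against the same pair of day 3 cultures, so their values share that pair. Markers of granulocyte-monocyte progenitors (Elane, Mpo, Prtn3, Ctsg and Cd34) also differed on these days. They summed to 5669.9, 1727, 499 and 89.5 CPM on days 3, 4, 5 and 7 in the control library and to 3986, 445, 205 and 238 CPM in the heme library. Their part in the lower values of days 4 and 5 was not tested.

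To compare cells, each was thinned to 3000 UMIs, and a cell with at least 3 UMIs of the S phase list or at least 3 of the mitosis list was counted as cycling. In the control library 89.8%, 80.7%, 54.2%, 40.6% and 34.9% of cells were cycling on days 0, 3, 4, 5 and 7. In the heme library the shares were 91.4%, 83.7%, 46.9%, 34.4% and 38.9%. Heme minus control was 1.63 percentage points (-0.46 to 3.75) on day 0 and 2.95 (0.825 to 5.11) on day 3. It was -7.27 (-10.1 to -4.45) on day 4, -6.14 (-8.91 to -3.37) on day 5 and 3.96 (1.38 to 6.54) on day 7. The intervals on days 4, 5 and 7 left out 0, as did that of day 3, before exposure.

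These shares depended on depth and on filters. The cells too shallow to be thinned numbered from 22 to 291 per control culture and from 27 to 186 per heme culture. Without thinning, the difference was 1.90, 10.7 and 19.8 points on days 4, 5 and 7, and median UMIs per thinned cell on those days were 12666, 11414 and 12771 in the control and 12140.0, 14284 and 17874 in the heme library. With cells above 5000 genes left out, the difference was -3.13 on day 3 and -0.525 on day 7. Between 3.53% and 13.9% of cells lay 1 UMI below the limit. On days 4, 5 and 7 these were 9.93%, 11.8% and 13.9% of heme cells and 5.41%, 7.92% and 10.4% of control cells. A limit of 2 UMIs gave smaller differences on days 4 and 5 and a larger one on day 7, as listed under processing. Cells with at least 2 UMIs each of Ccr7 and Fscn1, genes of mature dendritic cells that should not divide, gave the level to set beside these shares. Of them 6.26% (4.47 to 8.49%) of 607 were counted as cycling in the control and 12.3% of 227 in the heme library, at median depths of 12118 and 20086 UMIs.

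The classes by list also differed. On day 7, cells positive for both lists were 17.7% of the control and 23.9% of the heme culture, a difference of 6.26 points (4.09 to 8.43). Cells positive for the S phase list alone were 10.1% and 8.38%, a difference of -1.68 points (-3.23 to -0.12).

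Cells were then gated by 3 marker genes. Camp-high cells (at least 0.5% of UMIs from Camp, a granule protein gene of neutrophil precursors) held Ltf, another granule gene, at 9236 CPM against 309 CPM in the other control cells. Vcan-positive cells (at least 2 UMIs of Vcan, a monocyte gene) had Ccr2 at 424 against 181 CPM in the control and 287 against 60.4 CPM in the heme library. Marco-positive cells (at least 3 UMIs of Marco, a macrophage scavenger receptor) had Mrc1, a macrophage lectin gene, at 361 against 91.6 CPM in the heme library, while the macrophage gene C1qa was at 3.91 CPM. They numbered 1238 in the heme and 24 in the control library. A gate on UMIs also picks deep cells, and the median depth of Vcan-positive cells on day 5 was 23523 UMIs in the control and 29858 in the heme library, against 11414 and 14284 in all thinned cells.

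In Camp-high cells the cycling share was lower on each later day to day 5 in both libraries. The cycling share was 73.8%, 45.0% and 33.1% on days 3, 4 and 5 in the control and 73.8%, 43.2% and 25.7% in the heme library. The differences were -0.06 (-4.64 to 4.62), -1.80 (-6.17 to 2.57) and -7.33 (-16.1 to 2.16) points, and none of these intervals left out 0. Cells positive for the mitosis list alone differed by -7.55 points (-13.1 to -0.831) on day 5, and those positive for the S phase list alone by -2.38 points (-4.91 to -0.0688) on day 3. On day 4 the summed ratio of heme to control was 1.12 (1.10 to 1.15) for S phase and 1.03 (1.02 to 1.05) for mitosis genes, and the median of all genes in the gate was 0.51 on the log2 scale, above the 0.33 and 0.18 of the lists. On day 5, Mcm5 and Mcm6 were past 2-fold higher in heme Camp-high cells, at 74.1 against 35.2 CPM and 45.4 against 22.5 CPM, where 13.4% of all genes were.

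On day 7 the control culture held 12 Camp-high cells, too few to compare, and the heme culture held 118. Of these, 60.2% (50.5 to 69.3%) of the 113 deep enough were cycling, against 25.7% (18.6 to 33.9%) of 136 on day 5. Within these cells, 31 of the 36 genes had intervals above 1 from day 5 to day 7 (11.6% of all genes), with Top2a at 233 and 503 CPM, Cdc20 at 31.1 and 83.3 CPM and Rrm2 at 64.5 and 150.1 CPM on the 2 days. The summed level of the neutrophil precursor markers on day 7 was 821 CPM (control) and 4024 CPM (heme).

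Vcan-positive cells differed between the libraries on days 4 and 5 once thinned. The cycling share in Vcan-positive cells was 81.6%, 72.9%, 67.2% and 42.3% on days 3, 4, 5 and 7 in the control and 85.9%, 59.6%, 54.0% and 43.4% in the heme library. The difference was 4.28 (0.764 to 7.94), -13.3 (-19.1 to -7.36), -13.2 (-18.9 to -7.25) and 1.11 (-5.79 to 7.86) points on these days. The gate held unlike cells on day 7, when 660 of the 1306 heme Vcan-positive cells were also Marco-positive. In the control culture of that day, 2 cells lay in 2 or more gates. Without thinning, chosen as an alternative after seeing the data, the shares were 94.4% and 93.7% (control) and 95.2% and 95.3% (heme) on days 4 and 5, so that the direction turned, and the difference on day 7 was 14.2 points. The summed mitosis ratio within the gate was 1.11, 0.786, 0.680 and 0.917 on those days, and the S phase ratio 1.08, 0.825, 0.754 and 1.18. With cells above 5000 genes left out, the day 3 difference of the share was -5.51 points and the median log2 ratios on day 7 were -0.17 for S phase and -0.69 for mitosis genes. On day 5, 27 of the 36 genes had intervals below 1 in these cells (21.6% of all genes). Tyms, Cdk1, Cdc20, Ube2c and Birc5 were past 2-fold lower, against 3.83% of all genes. Ube2c, the lowest, was at 303 CPM in control and 124 CPM in heme Vcan-positive cells.

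Cells in none of the 3 gates had differences in the cycling share of 4.11, -10.6, -11.6 and -2.13 points (-5.85 to 1.68 on day 7) on days 3, 4, 5 and 7. On day 7, no gate with enough cells in both libraries had an interval that left out 0, while the whole culture did. The gates differed in size by then, with Vcan-positive cells at 47.1% of the heme and 8.41% of the control culture.

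**Figure D3:**
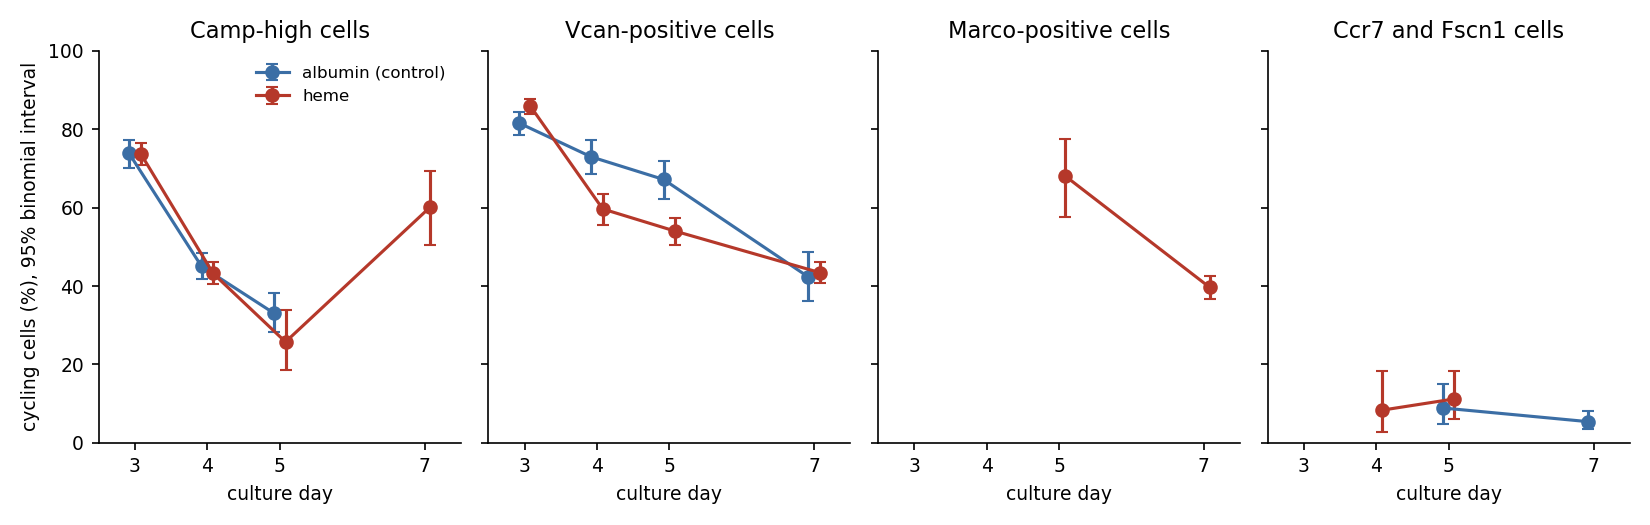
Share of cycling cells (%, thinned to 3000 UMIs, bars are 95% binomial intervals) by culture day in Camp-high, Vcan-positive and Marco-positive cells and in cells with Ccr7 and Fscn1, in the control (blue) and heme (red) libraries; gates with under 50 cells are not drawn. The libraries overlap in Camp-high cells to day 5 and part in Vcan-positive cells on days 4 and 5, and the drawn Ccr7 and Fscn1 points lie under 12%. Of the Ccr7 and Fscn1 cells not drawn, 4 of 17 (heme, day 3), 6 of 34 (heme, day 7), 1 of 9 (control, day 3) and 2 of 38 (control, day 4) were cycling.

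Marco-positive cells also held cell cycle RNA. In the heme library 18 of 36 such cells were cycling on day 4, 68.1% (57.5 to 77.5%) of 91 on day 5 and 39.7% (36.7 to 42.6%) of 1097 on day 7. From day 5 to day 7, 34 of the 36 genes had intervals below 1 in this gate (16.6% of all genes), with summed ratios of 0.713 for S phase and 0.603 for mitosis genes. On day 7 they held 47.4% of the S phase and 43.7% of the mitosis UMIs of the heme culture and 45.8% of all its UMIs. Against all other cells of that culture, their summed S phase ratio was 1.07 (1.05 to 1.09) and their mitosis ratio 0.917 (0.904 to 0.930). Among Vcan-positive cells, those with Marco exceeded those without by 1.18 (1.151 to 1.2004) for S phase and 1.05 (1.03 to 1.07) for mitosis genes.

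On day 7, where the cell cycle UMIs lay went largely with the share of all UMIs in each gate. In the heme culture, 64.8% of mitosis UMIs were in Vcan-positive cells and 19.6% in none of the gates, near the 61.8% and 21.4% of all UMIs that these cells held. In the control culture 16.3% were in Vcan-positive cells and 83.2% in none of the gates, beside 12.8% and 86.6% of all UMIs. Heme Camp-high cells departed from this, with 5.73% of mitosis and 2.34% of all UMIs. On day 5, heme Marco-positive cells held 10.2% of mitosis and 5.95% of all UMIs, and heme cells in none of the gates 32.2% and 40.1%. On day 4 the 2 cultures were alike, with 31.5% (control) and 33.6% (heme) of mitosis UMIs in Camp-high cells.

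The lists differed along the Camp level of a cell, though not in one direction. On day 3 in the control library, cells under 0.05% Camp were positive for the S phase list in 73.5% and for the mitosis list alone in 8.18%. Cells from 0.05% to 0.5% Camp had the highest S phase share, at 86.8% (control) and 85.3% (heme). Cells with at least 2% Camp were positive for the S phase list in 48.5% and for the mitosis list alone in 19.8%. The heme library gave 79.7% and 6.49% under 0.05% and 44.9% and 21.02% at 2% or more. Cells with at least 3% of UMIs from S100a8 and under 0.05% Camp were not a low reference, since 97.0% of 132 in the control and 95.9% of 170 in the heme library were cycling on day 3.

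The filter that removes the most complex cells bore on these genes. Cells above 5000 detected genes made up 2.00 to 8.66% of the control and 17.2 to 35.1% of the heme cultures. They held 7.02 to 39.4% and 47.1 to 69.0% of the mitosis UMIs, beside 5.9 to 24.5% and 41.1 to 62.4% of all UMIs. Of the cycling cells on day 7, 11.7% (control) and 41.0% (heme) were above the limit. Within the limit the mitosis genes stood at 1114 CPM (control) and 989.9 CPM (heme) on day 7, in the opposite order to the 1266 and 1418 CPM of all cells. Doublets of 2 cells of the same culture cannot be recognised by hashtags and were not removed.

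**Figure D4:**
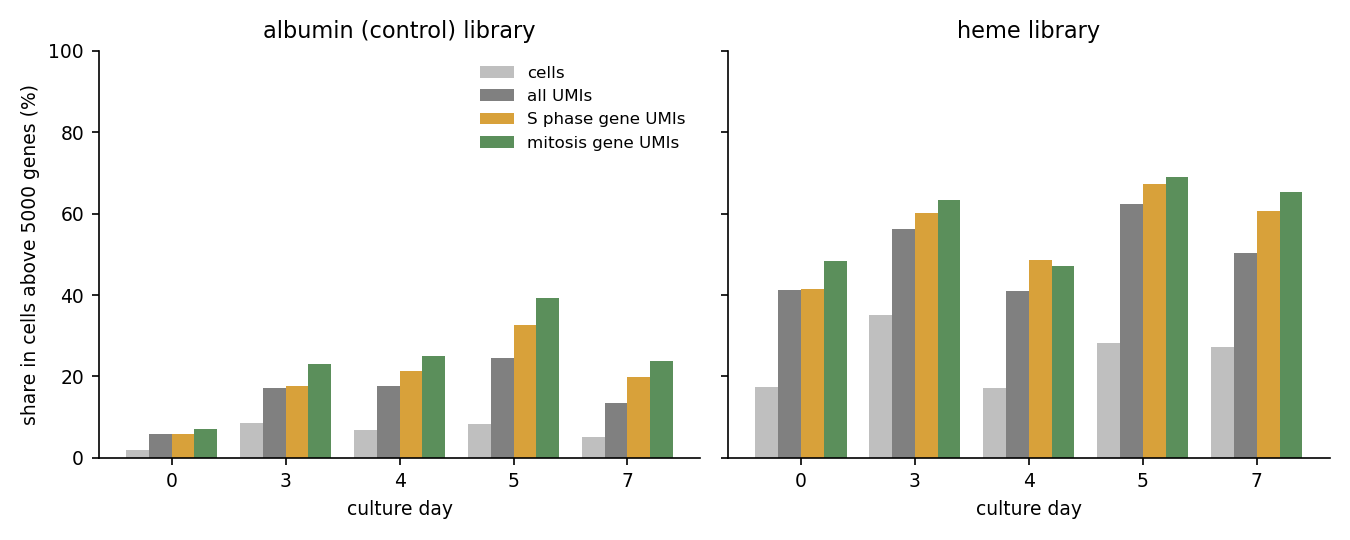
Share (%) of cells, of all UMIs, of S phase gene UMIs and of mitosis gene UMIs that lay in cells above 5000 detected genes, by culture day in the control (left) and heme (right) libraries. In every culture the mitosis share exceeds the share of cells, and it reaches 69.0% in the heme library on day 5 against 39.4% in the control. The share of all UMIs in these cells on that day was 62.4% (heme) and 24.5% (control).

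Barcodes without a hashtag call had high levels of these genes. The 652 Negative barcodes of the control library had 3664 CPM of S phase and 5082 CPM of mitosis genes, against 1467 and 2226 CPM in Singlets. The 1218 of the heme library had 3878 and 4623 CPM, against 1535 and 2418 CPM. Of those deep enough, 88.2% of 280 and 85.0% of 625 were cycling.

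Further genes of the pathway were counted in the same way. Of 25 further S phase genes, 14 had an interval below 1 and 3 above 1 on day 5 (20.9% and 50.5% of all genes), and on day 7 it was 6 below and 14 above, close to the 23.3% and 54.6% of all genes. Of 30 further mitosis genes, 20 were below and 3 above on day 5, and 3 below and 22 above on day 7. Past 2-fold were Spc24, a kinetochore gene (55.0 CPM in control and 26.1 CPM in heme cells), and Cks1b, a Cdk subunit (169 and 82.1 CPM), both lower on day 5.

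Of 25 genes of G1 and cell cycle inhibitors, those past 2-fold higher numbered 3 of 23 tested on day 0 (16.9% of all genes), 2 of 25 on day 3 (6.71%), 1 of 24 on day 4 (11.1%) and 2 of 24 on day 5 (10.4%). A further 2 were past 2-fold lower on day 5 (3.58%), and on day 7 it was 3 higher and 2 lower of 24 (22.8% of all genes in either direction). Single genes past 2-fold are given for their size. Cdkn2a, whose locus encodes the inhibitors p16Ink4a and p19Arf that 3′ counting does not separate, was at 18.5 CPM (heme) and 0.925 CPM (control) on day 5, a ratio of 20.0 (14.0 to 29.4). On day 7 it was at 31.1 and 1.41 CPM, a ratio of 22.0 (17.0 to 29.1). A UMI of it was found in 8.48% (7.47 to 9.58%) of heme and 1.60% (1.18 to 2.11%) of control cells on that day, so the culture level came from a minority of cells. On day 3 it was at 0.692 (heme) and 0.309 CPM (control), from 52 and 11 UMIs. Cdkn2b (p15Ink4b), its neighbour on the chromosome, was past 2-fold higher in the heme library already on day 3, at 0.346 and 0.0842 CPM from 26 and 3 UMIs, a ratio of 4.11 (1.26 to 21.2). It was at 4.66 and 1.199 CPM on day 4, 15.4 and 1.82 CPM on day 5 and 10.2 and 3.81 CPM on day 7. Cdkn2c, a further inhibitor of Cdk4 and Cdk6, was lower on day 5, at 6.33 and 14.3 CPM, as was the antiproliferative gene Btg2, at 53.1 and 111 CPM. Ccnd2 (cyclin D2), which drives G1, stood on day 7 at 459 CPM (control) and 104 CPM (heme), and Btg1 at 829 and 333 CPM. E2f2 was higher on day 7, at 40.9 and 17.97 CPM. Cdkn1a, Cdk6 and Rbl1 were past 2-fold higher already on day 0, at ratios of 2.19, 2.07 and 2.03.

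Cdkn2a was low in cycling cells. In the heme culture on day 7, Cdkn2a was at 8.00 CPM (6.89 to 9.24) in cycling and 48.7 CPM (46.3 to 51.2) in other cells. It was at 9.10 CPM in Marco-positive and 49.8 CPM in Marco-negative cells, and at 59.5 CPM in Vcan-positive cells without Marco. Camp-high cells held 0 of its UMIs, which allows at most 2.90 CPM. Within Marco-positive cells the levels in cycling and other cells were 8.10 (6.52 to 9.94) and 9.93 (8.33 to 11.8) CPM, whose intervals overlapped. Ccnd2 was likewise lower in cycling cells, at 321 against 562 CPM (control) and 67.0 against 133 CPM (heme).

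**Figure D5:**
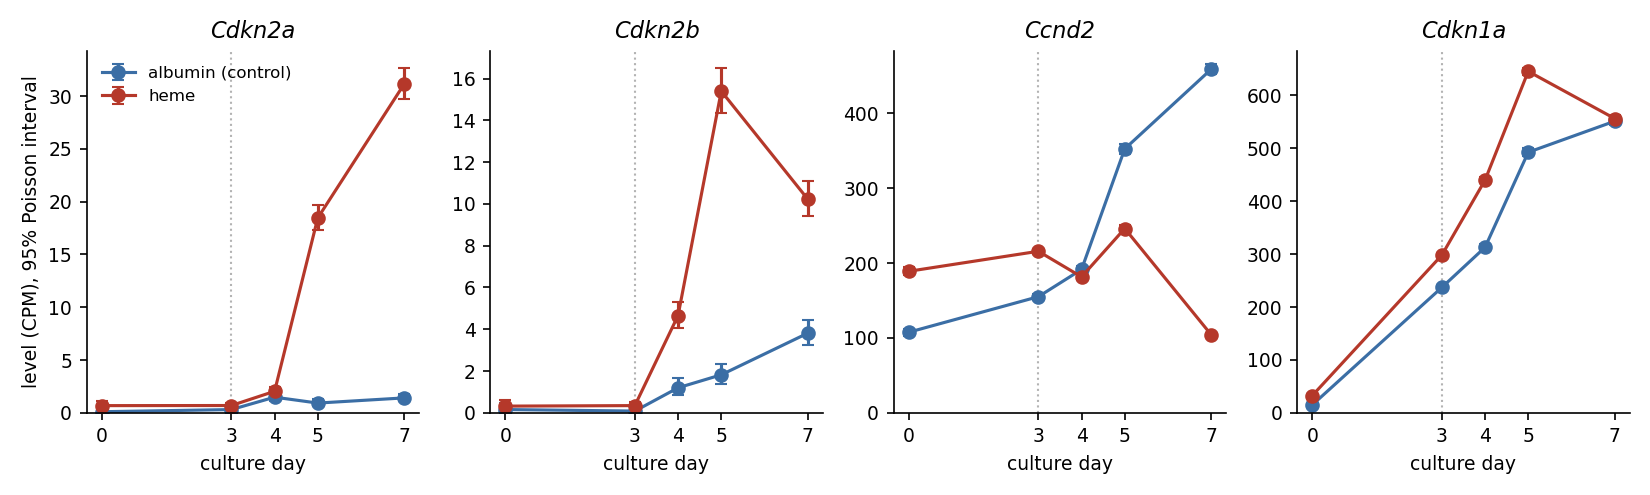
Level (CPM, bars are 95% Poisson intervals) of Cdkn2a, Cdkn2b, Ccnd2 and Cdkn1a by culture day in the control (blue) and heme (red) libraries; the dotted line marks day 3. Cdkn2a reaches 31.1 CPM in the heme library on day 7 and stays under 2 CPM in the control, while Ccnd2 ends at 104 CPM (heme) and 459 CPM (control).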

How the data were processed

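The matrices hold counts of unique molecular identifiers (UMIs) per gene and cell, which the authors deposited with hashtag calls (Singlet, Doublet or Negative, and the day). Per the labels' processing notes, Cell Ranger 4.0.0 and GRCm38.p6 were used; the matrix header names 5.0.0. The methods describe hashtag calls with Seurat 3.2.3 (HTODemux, quantile 0.99).

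Here, Singlets with at least 500 genes and under 15% mitochondrial UMIs were kept, with no upper gene limit and no ribosomal limit, since 77.8% of control cells of day 0 held 30% or more ribosomal UMIs. Doublets were treated by the hashtag calls alone. UMIs were summed per library and day and divided by the summed total (CPM). Genes with at least 20 UMIs in both cultures together entered a comparison, and 2-fold was the limit for a call. With 1 library per group no test was run. Cells were thinned once without replacement, with a fixed seed, and cells with fewer UMIs were left out. The interval of a difference combines the 2 binomial intervals. Ratios and their intervals recovered the set values on simulated Poisson counts, which fit that interval by construction. Thinning kept the S phase share of control cells. Cycling shares, their differences, gates and list medians were not simulated. Alternatives were an upper limit of 5000 genes, a ribosomal limit, every Singlet, TMM (edgeR 4.0.16) and DESeq2 1.42.0 size factors, the mean of single cells, other thinning depths, UMI limits and gates, and subtraction of day 3. A lower limit of 1 UMI per gene, in place of 20, was also counted as an alternative, although it leaves the list medians unchanged. Only scaling factors were taken from edgeR and DESeq2. Python 3.11.15, numpy 2.4.6, scipy 1.17.1 and R 4.3.3 were used. Gene IDs were matched to GENCODE M21 (26090 of 26124).

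All 36 members could be named; of further pathway genes, those past 2-fold whose interval left out 1. Members, gene lists and gates were chosen with earlier results of these data known.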

Additional observations from a re-analysis of the deposited data

Results flagged for a closer look

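From day 5 to day 7 the 2 libraries moved in opposite directions when all cells were counted. The summed S phase UMIs had a ratio of 1.05 in the heme and 0.745 in the control library, and the summed mitosis UMIs had 1.08 and 0.696. With cells above 5000 genes left out, both lists were lower on day 7 than on day 5 in both libraries, with S phase at 822 and 786 CPM (heme) and 1080.1 and 835 CPM (control), and mitosis at 1080.3 and 989.9 CPM (heme) and 1461 and 1114 CPM (control). The difference between the libraries was not tested, since each has 1 culture per day. The heme ratios lay close to 1, and the share of Vcan-positive, Marco-positive and Camp-high cells differed between the 2 days in both libraries, a part that was not tested.

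Barcodes without a hashtag call enter no comparison of cultures. In the heme library their S phase genes stood at 3878 CPM, above the 3664 CPM of the control library and above both sets of Singlets. Their median depth was 3164.5 UMIs in the heme and 2394 in the control library, and the day they came from is not known.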

How the results depend on the processing

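No paired analysis was possible because each group has 1 library and the labels give no replicate numbers, and for the same reason leaving out a replicate was not possible. Of 276 alternatives to the 55 list and share results, 213 stayed within the counting interval (shares) or gene spread (list medians) of the value reported. A further 52 moved beyond it, and 11 changed the sign of a value whose counting interval or gene spread left out 0. The gene spread is a range over the genes of a list, which are not replicates, and it does not measure counting error. The lower UMI limit per gene left list medians unchanged by construction, and these cases count among the 213. Sign changes of any value, called or not, numbered 35. The alternatives for steps in time and for lists within gates, and unthinned shares within gates, were chosen after seeing the data. Of 756 alternatives to single genes, 122 changed sign, none of them for the 3 genes past 2-fold. A depth of 3000 UMIs limits the shares, and 1 library per group limits every comparison.

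For heme against control (median log2), TMM scaling gave mitosis -0.12, 0.0079, -0.23 and -0.61 on days 0, 3, 4 and 5, and S phase -0.35 on day 4 and -0.12 on day 7. DESeq2 size factors gave mitosis -0.15, 0.0199, -0.27 and -0.62 and S phase -0.38 and -0.096 on the same days. Subtracting day 3 gave mitosis -0.33, -0.70 and -0.12 on days 4, 5 and 7 and S phase -0.077 on day 7. Leaving out cells above 5000 genes gave mitosis 0.031 on day 0, and the mean CPM of single cells gave S phase -0.058 on day 5 and mitosis 0.47 on day 7.

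For steps in time, leaving out cells with 30% or more ribosomal UMIs gave control mitosis -0.26 from day 0 to day 3. TMM gave control mitosis 0.28, -0.30 and -0.46 for the steps to days 3, 4 and 5 and heme mitosis 0.45 and -0.53 to days 3 and 4. DESeq2 factors gave control mitosis 0.17, -0.28 and -0.45, control S phase -0.41 to day 4 and heme mitosis 0.40 and -0.56. The limit of 5000 genes gave control mitosis -0.55 to day 5 and -0.36 to day 7, heme mitosis -0.58 to day 4 and, for day 7 against day 5, heme S phase -0.10 and mitosis -0.12. Within gates it gave mitosis -0.41 in Camp-high cells on day 5 and -0.22, -0.57 and -0.69 in Vcan-positive cells on days 3, 4 and 7, with S phase -0.17 on day 7.

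For the cycling share (heme minus control, percentage points), thinning to 5000 UMIs gave -1.02 on day 0 and 6.78 on day 7, and unthinned counts gave 1.90, 10.7 and 19.8 on days 4, 5 and 7. Within gates, unthinned counts gave 6.82 in Camp-high cells on day 4 and 0.824, 1.62 and 14.2 in Vcan-positive cells on days 4, 5 and 7, and shares of 97.8% and 92.99% in Marco-positive heme cells on days 5 and 7. In whole cultures, a limit of 2 UMIs gave -2.75, -2.28 and 7.497 on days 4, 5 and 7. The limit of 5000 genes gave -3.13, -9.13 and -0.52 on days 3, 5 and 7, and -5.51 in Vcan-positive cells on day 3. The ribosomal limit gave 0.64 on day 7. The share in Marco-positive heme cells on day 7 was 27.8% under the limit of 5000 genes, 52.5% when thinned to 5000 UMIs and 32.6% in cells of 1 gate only. Apart from the construction of each alternative, the cause was not tested.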

Other observations

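Barcodes called as Doublets were cycling in 74.9% of 1221 cases in the control and 74.8% of 1960 in the heme library, against 56.3% and 57.9% of Singlets. Their median depth was 23668 and 30969 UMIs, against 11928 and 14624 UMIs in Singlets. Their S phase genes stood at 1554 CPM in the control and 1504 CPM in the heme library, beside 1467 and 1535 CPM in Singlets.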
